A study of Mus musculus with 25 samples.

Results

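The genes described here are 44 genes of the cell cycle and of DNA replication, found by their symbols in both expression tables of a study of the mouse esophagus. They comprise 18 replication genes, 3 G1 cyclins, 20 mitosis genes and 3 transcription factors, out of 21106 genes listed for pups and 19942 listed for adults. Each of the 44 is listed once in each table, and all 44 passed the filter on low values. The study measured RNA of the whole esophagus by sequencing, in mice with an activating change of NRF2 (gene Nfe2l2), the transcription factor that switches on detoxification genes, or with reduced KEAP1, the adaptor that marks NRF2 for degradation.

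In pups of 7 to 10 days, constitutive Cre under the keratin 5 promoter (K5Cre) drove recombination, and the groups were L30F homozygotes, KEAP1-deficient pups and wild type, with 3 libraries each. In adults of 6 to 9 weeks, tamoxifen-inducible Cre under the same promoter (K5CreERT2) did so, and the groups were L30F heterozygotes, L30F homozygotes, KEAP1-deficient adults and wild type, with 4 libraries each. All adult groups were collected 1 week after tamoxifen at 100 µg per g of body weight. L30F replaces leucine by phenylalanine at codon 30 of NRF2, and the keratin 5 promoter directs recombination to squamous epithelial cells, while the RNA also comes from muscle, stroma and blood cells of the organ. By genotype the mutant pups are NRF2L30F/L30F::K5Cre homozygotes and KEAP1flox/flox::K5Cre pups. The mutant adults are NRF2L30F/+::K5CreERT2 heterozygotes, homozygotes labelled NRF2L30F/L30F::K5CreERT2, and the KEAP1flox/flox::K5CreERT2 group. Wild-type mice are labelled by that word alone, with no statement on Cre. Whether libraries of a group stem from different animals is not stated either, so the tests measure spread among libraries, which may be technical.

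Squamous epithelium renews itself from dividing basal cells that lie on the basement membrane, and cells leave the cycle as they move up and differentiate. A dividing cell first makes G1 cyclins, which release E2F transcription factors, and E2F proteins switch on the genes of S phase: the MCM helicase and its loaders, the replication clamp and polymerases, and the enzymes that make deoxynucleotides. Genes needed for mitosis come on later, in G2 phase, under MYBL2 and FOXM1 with the MuvB complex, which binds the CHR element of their promoters, often beside CCAAT boxes bound by NF-Y.

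Among the replication genes, Mcm2 to Mcm7 encode the ring of the helicase, Cdc6 and Cdt1 load it, and Cdc45, Gins1 and Gins2 activate it. Pcna is the sliding clamp and Rfc4 part of its loader, Pola1 and Prim1 make primers, and Rrm1, Rrm2 and Tyms supply deoxynucleotides. The G1 cyclins are Ccnd1, Ccne1 and Ccne2. Among the mitosis genes, Cdk1 with Ccna2, Ccnb1 and Ccnb2 drives entry into mitosis, Plk1, Aurka, Aurkb and Birc5 act on the spindle and chromosomes, Bub1 and Bub1b form the spindle checkpoint, and Cdc20 and Ube2c work with the anaphase-promoting complex. Top2a and Mki67 act on mitotic chromosomes, and Tpx2, Kif11, Kif20a, Kif23, Cenpe and Cenpf on microtubules and kinetochores. The transcription factors are E2f1, Foxm1 and Mybl2.

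Promoter sequence around the RefSeq start of each gene (GRCm38.p6, windows of 300 bases, which is not the GRCm39 build of the deposited values) was available for 34 of the 44 genes, in 35 windows. Motifs were searched on both strands: TTTGGCGC, TTTCGCGC, TTTCCCGC and TTTGCCGC for E2F, TTTGAA and TTCGAA for the CHR element, CCAAT for NF-Y, and TGACNNNGC for the core of the antioxidant response element bound by NRF2. An E2F motif lay in 7 of 16 windows of replication genes (43.8%), in 1 of 16 windows of mitosis genes (6.25%) and in 2.26% of all 32851 windows. A CHR motif lay in 3 of 16 windows of replication genes (18.8%), in 13 of 16 windows of mitosis genes (81.2%) and in 19.2% of all windows. CCAAT was frequent in both classes, in 12 of 16 replication and 15 of 16 mitosis windows, against 37.4% of all windows. The core of the antioxidant response element lay in 3 of 16 windows of each class, 18.8%, against 12.4% of all windows. In 1 window of a member an E2F and an NF-Y match overlapped. A match is a description of these letters and not a measured site.

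Of replication and of mitosis genes, Mcm3 and Cdk1 are shown, as the genes with a window that had the smallest adjusted p in the comparison with most members called, the adult minus pup effect of KEAP1 deficiency. Capitals mark the E2F, CHR and NF-Y motifs. The Mcm3 window (chr1:20820263-20820562, minus strand) holds a pair of E2F motifs just after the start and 3 NF-Y motifs before it, and no CHR motif. The Cdk1 window (chr10:69352863-69353162, minus strand) holds 1 E2F motif, 2 CHR motifs and 3 NF-Y motifs.
Mcm3: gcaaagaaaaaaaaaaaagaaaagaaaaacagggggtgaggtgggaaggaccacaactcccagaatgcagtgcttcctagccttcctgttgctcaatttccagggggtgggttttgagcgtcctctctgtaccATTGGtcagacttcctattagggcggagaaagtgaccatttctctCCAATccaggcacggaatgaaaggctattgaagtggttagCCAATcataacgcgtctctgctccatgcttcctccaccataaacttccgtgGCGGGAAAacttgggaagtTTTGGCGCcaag
Cdk1: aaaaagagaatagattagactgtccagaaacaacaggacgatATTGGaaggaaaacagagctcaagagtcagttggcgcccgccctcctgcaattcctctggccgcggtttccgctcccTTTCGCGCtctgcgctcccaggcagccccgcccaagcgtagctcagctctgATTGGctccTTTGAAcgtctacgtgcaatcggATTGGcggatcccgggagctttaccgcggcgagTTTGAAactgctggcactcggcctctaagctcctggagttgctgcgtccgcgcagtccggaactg

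Pup libraries held 18792000 to 19650000 reads over the listed genes (rounded to the nearest 1000). Adult depth differed by genotype, with 12815000 to 16922000 reads in heterozygotes, 10868000 to 11643000 in homozygotes, 22484000 to 31344000 in KEAP1-deficient libraries and 27530000 to 32281000 in wild type. Values below are normalised read counts in library order 1 to n, the log2 fold change is that of the normalised count plus 1, and a gene is said to have fallen or risen where limma's adjusted p was under 0.05 (Benjamini-Hochberg over all genes tested). Pup and adult tables were normalised separately, so no level is set across them. The targeted gene, Keap1, had 725 to 825 counts in KEAP1-deficient pups, against 1053 to 1094 in wild-type pups, and 721 to 812 in KEAP1-deficient adults, against 1077 to 1192 in wild-type adults, which fits the labels. Squamous and muscle markers of the esophagus were present in all groups. Library 3 of the L30F homozygous pups differed from the other 24 libraries in sex, with a Ddx3y count of 0 and 47281 for Xist.

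Library 4 of adult wild type stood apart in these genes before any comparison. All 20 mitosis genes were lower in it than in every other wild-type library, by a median of 1.40 on the log2 scale against the median of the others, and 11 of 18 replication genes were higher. The share of all genes lowest or highest in a library is not given here, for library 4 or for libraries counted so below. Such counts are therefore not set against a background. Cdk1, for example, had 86.0 normalised counts there and 203, 207 and 224 in libraries 1 to 3. Its Nqo1 count, 1094, lay among those of the other wild-type libraries (1240.3, 984 and 1035) and far below those of heterozygotes (3863 to 4760.1). Nqo1 encodes a detoxification enzyme and is a textbook NRF2 target. Circadian clock genes, which were looked at after these values were seen, set the same library apart. Dbp, a clock output gene, had 2375 counts in library 4, against 184, 227 and 138 in wild-type libraries 1 to 3. Dbp ranged from 1401 to 2425 in heterozygotes, 475 to 1707 in homozygotes and 103 to 715 in KEAP1-deficient adults. Arntl, which encodes the clock activator BMAL1 and peaks at the opposite time of day, had 179 counts in library 4, against 890.0, 846 and 765 in libraries 1 to 3. It ranged from 75.5 to 159 in heterozygotes. In the comparisons with adult wild type, counts of members and the changes of the main genes are therefore also given without library 4. The hour of collection is not given in the sources used here.

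**Figure D1:**
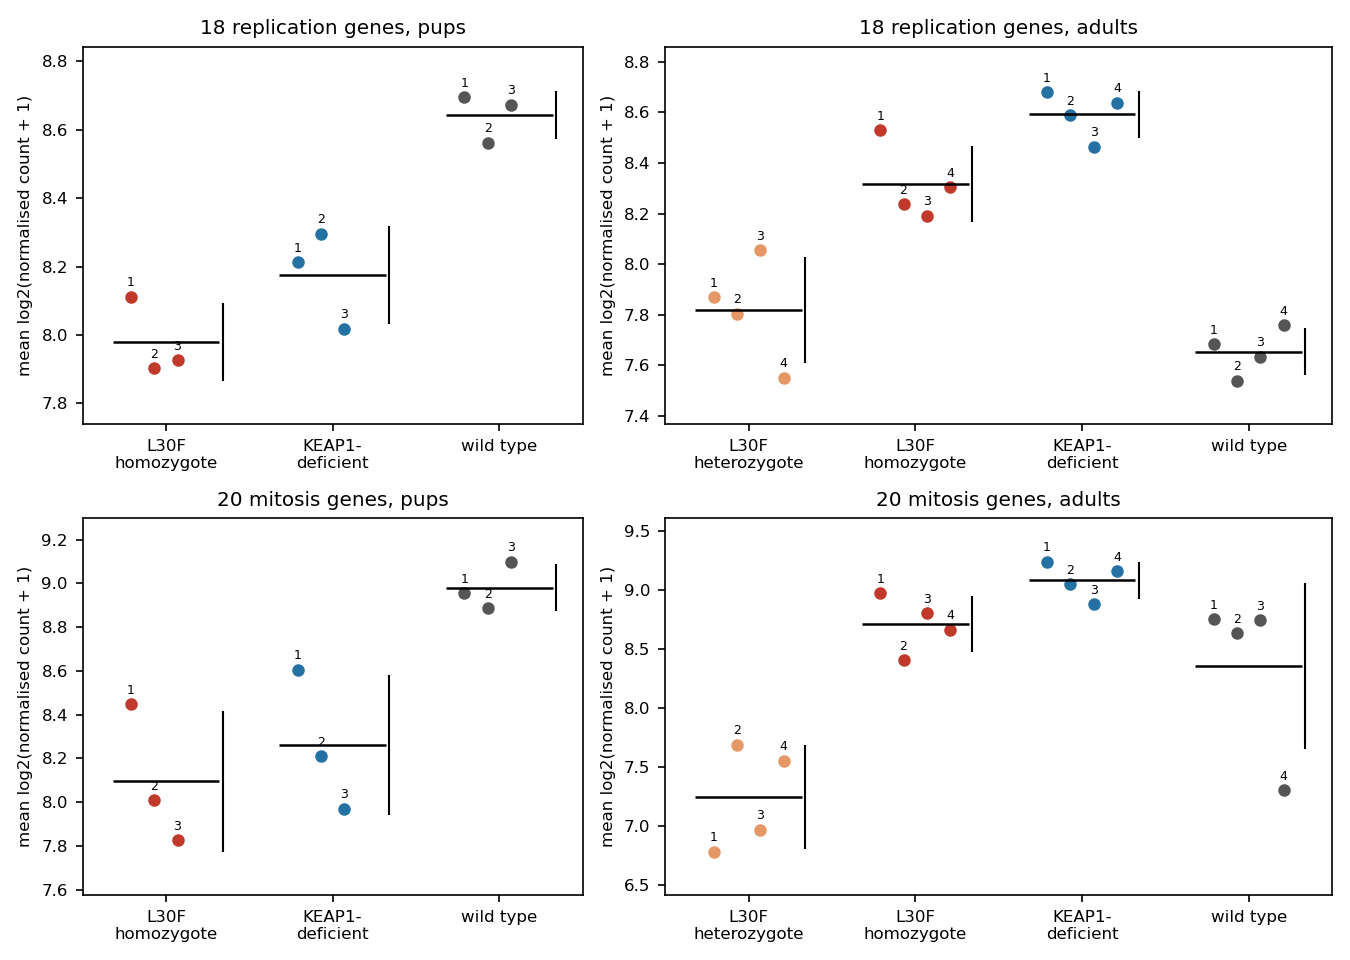
Mean log2(normalised count + 1) of the 18 replication genes (upper row) and the 20 mitosis genes (lower row) in each library of pups (left) and adults (right), with group means as horizontal lines, SD as vertical lines and library numbers beside the points. Wild-type pups lie above all mutant pups in both rows, adult homozygotes and KEAP1-deficient adults lie above wild type for replication, and wild-type adult library 4 lies with the heterozygotes for mitosis.

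In L30F homozygous pups, 39 of the 44 genes were lower than in wild type, comprising 14 of 18 replication genes, all 3 G1 cyclins, 19 of 20 mitosis genes and all 3 transcription factors. Of all genes tested, 17.1% were called lower and 22% higher. The median log2 fold change was -0.84 over the 44 genes and -0.028 over all genes. The means of the replication genes, 8.11, 7.90 and 7.93 on the log2 scale in homozygous libraries, against 8.69, 8.56 and 8.67 in wild type, did not overlap. In bulk RNA, fewer dividing cells and less of each RNA per dividing cell cannot be told apart.

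Mcm2, a subunit of the replicative helicase, had 458, 334 and 389 normalised counts in homozygous pups, against 890.2, 723 and 821 in wild-type pups, and fell by 1.05 in log2 (SE 0.13, adjusted p = 0.000172). E2f1, the transcription factor of S-phase genes, had 126, 94.6 and 108, against 265, 249 and 275 in wild type, and fell by 1.27 in log2 (SE 0.15, adjusted p = 8.05e-05). Ccne2, an E-type cyclin that starts S phase, had 90.7, 77.9 and 88.1, against 137, 181 and 228 in wild type, and fell by 1.05 in log2 (SE 0.23, adjusted p = 0.00489). The groups did not overlap in any of these 3 genes, of which E2f1 and Ccne2 were picked by their adjusted p. The widest fall among replication genes was that of Gins2, a subunit of the GINS complex that accompanies the helicase, which fell by 1.53 in log2 (SE 0.20, adjusted p = 0.000233). The 14 called replication genes ran from -0.30 (Tyms) to -1.53 (Gins2). The loaders of the helicase, Cdc6 and Cdt1, changed by -0.93 and -0.81, and the helicase activator Cdc45 by -0.90, all called.

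The median change was -0.96 for mitosis genes and -0.68 for replication genes, and the 19 called mitosis genes ran from -0.55 (Ccnb1) to -1.44 (Kif23). Mki67, which encodes the proliferation antigen Ki-67, had 3047, 2068 and 1975 normalised counts in homozygous pups, against 4807, 4738 and 5456 in wild type, and fell by 1.11 in log2 (SE 0.19, adjusted p = 0.00143). Top2a, the topoisomerase that untangles sister chromatids, had 1417, 1003 and 941, against 2245, 2059 and 2572 in wild type, and fell by 1.05 in log2 (SE 0.19, adjusted p = 0.00231). Cdk1, the kinase that drives entry into mitosis, had 266, 253 and 222, against 419, 389.5 and 408 in wild type, and fell by 0.72 in log2 (SE 0.12, adjusted p = 0.000973). Homozygous library 1 was the highest of its group for all 20 mitosis genes, and its counts of Mki67, Top2a and Cdk1 were below every wild-type library. Kif23, a kinesin of the dividing cell's midzone, fell by 1.44 in log2 (SE 0.28, adjusted p = 0.00256), and Foxm1 fell by 1.195 in log2 (SE 0.21, adjusted p = 0.00172).

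The deoxynucleotide enzymes moved less. Rrm2, the regulated subunit of ribonucleotide reductase, had 462, 365 and 407 normalised counts in homozygous pups, against 518, 502 and 576 in wild type, and missed the threshold with a change of -0.37 (SE 0.15, adjusted p = 0.0702). Without homozygous library 1 its adjusted p was 0.0498, and without KEAP1-deficient library 2 or 3, which share the fit, 0.0322 and 0.0395. Rrm1, the large subunit, had 1379, 1352 and 1224, against 1363, 1201 and 1264 in wild type, and missed the threshold with a change of 0.047 (SE 0.10, adjusted p = 0.73). Tyms, thymidylate synthase, fell by 0.30 in log2 (SE 0.063, adjusted p = 0.00396). Mcm7, Gins1 and Cdc20, the activator of the anaphase-promoting complex, also missed the threshold, with log2 fold changes of -0.30, -0.29 and -0.010. Pcna, the clamp that holds polymerases on DNA, had 745, 604 and 685, against 967, 967 and 1041 in wild type, and fell by 0.55 in log2 (SE 0.10, adjusted p = 0.00162). Ccnd1, the cyclin that answers growth signals in G1, had 1439, 1075 and 1108, against 1499, 1819.8 and 1831 in wild type, and fell by 0.51 in log2 (SE 0.12, adjusted p = 0.00828). Without homozygous library 3, the library of the other sex, 33 of the 44 genes were lower.

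In KEAP1-deficient pups, 31 of the 44 genes were lower than in wild type, comprising 11 of 18 replication genes, 2 of 3 G1 cyclins (both E-type), 16 of 20 mitosis genes and E2f1 and Foxm1. Of all genes tested, 23.2% were called lower and 26.3% higher. The median of the 44 genes was -0.66, against -0.051 over all genes. The replication means were 8.21, 8.30 and 8.02 in KEAP1-deficient libraries, against 8.69, 8.56 and 8.67 in wild type, again without overlap. Called replication genes ran from -0.20 (Tyms) to -1.22 (Gins2) and called mitosis genes from -0.55 (Birc5) to -1.38 (Kif23). Without KEAP1-deficient library 3, 22 of the 44 genes were lower and 10 of 20 mitosis genes, and 2 genes were called higher.

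Mcm2 had 473, 553 and 444 normalised counts in KEAP1-deficient pups, against 890.2, 723 and 821 in wild type, and fell by 0.73 in log2 (SE 0.13, adjusted p = 0.00125). Cdc6, which loads the MCM helicase onto origins, had 61.9, 65.5 and 50.8, against 120.2, 128 and 140.3 in wild type, and fell by 1.12 in log2 (SE 0.16, adjusted p = 0.000253). E2f1 had 134, 132 and 106, against 265, 249 and 275 in wild type, and fell by 1.08 in log2 (SE 0.15, adjusted p = 0.000158). Every KEAP1-deficient library was below every wild-type one in these genes, of which Cdc6 and E2f1 were picked by their adjusted p. Ccne2 had 126, 88.0 and 73.4, against 137, 181 and 228 in wild type, and fell by 0.92 in log2 (SE 0.23, adjusted p = 0.00734). Mki67 had 3417, 2606 and 2300.1, against 4807, 4738 and 5456 in wild type, and fell by 0.87 in log2 (SE 0.19, adjusted p = 0.00398). Top2a fell by 0.78 in log2 (SE 0.19, adjusted p = 0.00824), with 1693, 1278 and 1085 counts in KEAP1-deficient pups and 2245, 2059 and 2572 in wild type. KEAP1-deficient library 1 was the highest of its group for 19 of 20 mitosis genes, and library 3 the lowest for 17. Cdk1 had 273, 261 and 212, against 419, 389.5 and 408 in wild type, and fell by 0.71 in log2 (SE 0.12, adjusted p = 0.000688).

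Rrm2 and Ccnd1 missed the threshold in KEAP1-deficient pups, and Pcna passed it narrowly. Rrm2 had 413, 514 and 340.2 normalised counts in KEAP1-deficient pups, against 518, 502 and 576 in wild type, a change of -0.35 (SE 0.15, adjusted p = 0.074). Without KEAP1-deficient library 2 it passed, at -0.50 (adjusted p = 0.0136). Ccnd1 had 1700.3, 1556 and 1452, against 1499, 1819.8 and 1831 in wild type, a change of -0.13 (SE 0.12, adjusted p = 0.428). Pcna had 870.4, 871 and 733, against 967, 967 and 1041 in wild type, and fell by 0.27 in log2 (SE 0.10, adjusted p = 0.0461). That call is at the edge: without any of wild-type libraries 1 to 3 its adjusted p was 0.0732, 0.0823 and 0.141, without homozygous library 3 it was 0.0565, with 0.0502 and 0.163 when KEAP1-deficient library 2 or 3 was left out. Mcm5, Mybl2, Plk1 and Ccnb1 had changes of -0.18, -0.32, -0.41 and -0.23, none of them called.

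Set against each other, L30F homozygous and KEAP1-deficient pups had no member called by limma, while 2.4% of all genes were called lower and 1.76% higher. At an unadjusted p under 0.05 there were 10 members, 8 of them replication genes, and limma-voom on recovered reads called 0 lower and 0 higher. The share of all genes at that unadjusted threshold is not given here, so the 10 are not set against a background. Mcm2 had a log2 fold change of -0.32 (95% interval -0.62 to -0.021), Mki67 of -0.24 (-0.66 to 0.18), Cdk1 of -0.0030 (-0.27 to 0.26) and Ccnd1 of -0.39 (-0.67 to -0.11). Pcna and Top2a lay at -0.28 (-0.51 to -0.061) and -0.27 (-0.70 to 0.16), and Rrm2 at -0.024 (-0.35 to 0.31). Differences as wide as these intervals remain possible, so the groups are not shown to be alike. The medians were -0.24 for replication genes, -0.16 for mitosis genes and -0.018 for all genes. The wild-type libraries are shared by both comparisons above, so their results stand side by side without a measure of overlap. Without KEAP1-deficient library 3, 1 member, a replication gene, was called lower.

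Markers of other cell types were read in the pups too. Of all genes tested, 17.1% were called lower and 22% higher in homozygous pups, and 23.2% and 26.3% in KEAP1-deficient pups. The striated muscle counts in KEAP1-deficient pups did not exceed these shares. The smooth muscle count in homozygous pups was not far from its share. Of the muscle precursor markers (Pax7, Myf5, Myod1, Myog and Mymk), 3 of 5 were lower in homozygous and 5 of 5 in KEAP1-deficient pups, and their summed counts were 2053 to 3009 in homozygotes, 1176 to 1598 in KEAP1-deficient pups and 3480 to 3803 in wild type. Of the fibroblast markers, 7 of 8 were lower in homozygous and 7 of 8 in KEAP1-deficient pups, with sums of 164280 to 230412 in homozygotes, 100116 to 197335 in KEAP1-deficient pups and 467029 to 505542 in wild type. Of the smooth muscle markers, 2 of 8 were lower in homozygous and 3 of 8 in KEAP1-deficient pups, with sums of 30692 to 70517 in homozygotes, 29337 to 37475 in KEAP1-deficient pups and 68495 to 69322 in wild type. Of the basal squamous markers, 4 of 8 were higher and 1 lower in homozygous pups, 4 higher and 1 lower in KEAP1-deficient pups, and the sums were 86503 to 96783 in homozygotes, 93580 to 110337 in KEAP1-deficient pups and 59161 to 93396 in wild type. Suprabasal markers were higher for 5 of 6 and lower for 1 in homozygous pups, higher for 5 and lower for 1 in KEAP1-deficient pups, with sums of 192875 to 226119 in homozygotes, 271989 to 295116 in KEAP1-deficient pups and 121931 to 129744 in wild type. No marker of these lists was at 0 throughout a pup group. Of the endothelial markers, 2 of 6 were lower and 1 higher in homozygous pups, 4 lower and 1 higher in KEAP1-deficient pups, with sums of 5628 to 8270 in homozygotes, 4932 to 5565 in KEAP1-deficient pups and 6919 to 7673 in wild type. Of the striated muscle markers, 4 of 12 were lower and 2 higher in homozygous pups, 2 lower and 2 higher in KEAP1-deficient pups, with sums of 588940 to 830529 in homozygotes, 826579 to 976067 in KEAP1-deficient pups and 661881 to 759294 in wild type. Of the nerve and glia markers, 2 of 6 were lower in homozygous and 3 of 6 in KEAP1-deficient pups, and 1 was higher in each. Of the red blood cell markers, 0 of 7 were lower in homozygous and 5 of 7 in KEAP1-deficient pups. The part of these cell types in the lower cycle genes was not tested. Clock genes differed as well: Dbp had 109, 75.9 and 113 counts in homozygous, 125, 128 and 75.6 in KEAP1-deficient and 369, 312 and 314 in wild-type pups. The clock gene difference (mean log2 of 9 genes that peak with Dbp minus that of Arntl, Npas2 and Clock) separated pup groups so far that 89.7% of its variance lay between them. The 9 genes did not all move alike. Tef, Hlf, Per3, Nr1d2 and Bhlhe41 had lower means in both mutants than in wild type, as Dbp had. Per2 had a mean of 879 in homozygous pups, against 779 in wild type. Nr1d1 had 1328 in KEAP1-deficient pups, against 862. Ciart had 27.0 in homozygous and 35.6 in KEAP1-deficient pups, against 24.5. With the clock gene difference as a covariate no member was called in either comparison with wild type, so this measure and genotype cannot be told apart in the pups.

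In adult L30F heterozygotes, mitosis genes were lower and E-type cyclins higher than in wild type. 18 of 20 mitosis genes and Foxm1 were lower, together with Tyms as the only replication gene of 18, and Ccne1 and Ccne2 were higher. That made 20 of 44 genes lower and 2 higher, where 4.9% of all genes tested were called lower and 4.8% higher. The medians were -1.07 for mitosis genes, 0.23 for replication genes and 0.011 for all genes.

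Mki67 had 1069.8, 2055, 1175 and 1694 normalised counts in heterozygotes, against 4137, 3656, 3826 and 1482 in wild type, and fell by 1.07 in log2 (SE 0.28, adjusted p = 0.0282). Top2a had 609, 964, 586 and 837, against 1961, 1799, 1929 and 871 in wild type, and fell by 1.09 in log2 (SE 0.23, adjusted p = 0.00965). Cdk1 had 70.7, 126, 73.9 and 88.9, against 203, 207, 224 and 86.0 in wild type, and fell by 0.94 in log2 (SE 0.25, adjusted p = 0.0303). In all 3 genes wild-type library 4 lay within the range of the heterozygotes, and the other wild-type libraries lay above every heterozygote. Foxm1, the transcription factor of G2 and mitosis genes, had 118, 228, 155 and 216, against 397, 339, 375 and 177 in wild type, and fell by 0.82 in log2 (SE 0.23, adjusted p = 0.0355). Cdc20, Cenpf, Plk1 and Ccnb1 had the widest falls among mitosis genes, at -1.47, -1.46, -1.36 and -1.35, and Aurka and Birc5 missed the threshold at -0.86 and -0.86.

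Ccne1, which like Ccne2 activates CDK2 for entry into S phase, had 82.9, 81.7, 79.9 and 62.2 normalised counts in heterozygotes, against 33.2, 33.6, 42.9 and 68.6 in wild type, and rose by 0.82 in log2 (SE 0.20, adjusted p = 0.0169). Its wild-type library 4 again lay within the heterozygous range. Tyms had 679, 672, 665 and 744, against 839, 780.2, 894 and 799.8 in wild type, and fell by 0.26 in log2 (SE 0.065, adjusted p = 0.0208). Mcm2 had 454, 374, 533 and 299, against 286, 300.3, 299.9 and 410.0 in wild type, and missed the threshold with a change of 0.34 (SE 0.15, adjusted p = 0.17). Heterozygous library 4 was the lowest of its group for 13 of 18 replication genes. Without it Mcm2 passed at 0.49 (adjusted p = 0.0357) and Pcna at 0.44 (adjusted p = 0.0225). With it Pcna had 1029.6, 797, 793 and 584, against 602, 588, 608 and 766 in wild type, a change of 0.30 (SE 0.13, adjusted p = 0.164). Rrm2 had 218, 327, 252 and 162, against 298, 259, 272 and 195 in wild type, a change of -0.12 (SE 0.19, adjusted p = 0.742). Ccnd1 had 3633, 1833, 2205 and 1273, against 1299.9, 1295, 1144 and 2317 in wild type, a change of 0.52 (SE 0.26, adjusted p = 0.223).

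The counts in heterozygotes rest on few libraries. Without wild-type library 4, 20 of 20 mitosis genes were lower and 1 replication gene was higher. The changes without it were -1.42 for Mki67, -1.37 for Top2a, -1.26 for Cdk1, -1.09 for Foxm1, 1.05 for Ccne1 and -0.28 for Tyms, all called. Without wild-type library 1, 2 or 3 the mitosis count was 2, 5 and 4. It was 5 without heterozygous library 1, 6 without library 3, 19 without library 2 and 18 without library 4. Mki67, Cdk1 and Foxm1 each lost the call without any one of wild-type libraries 1 to 3 or heterozygous libraries 1 and 3, with adjusted p up to 0.105 for Mki67, 0.106 for Cdk1 and 0.127 for Foxm1, while Top2a stayed under 0.05 in each of these fits. Ccne1 lost it without wild-type library 1 or 2 (adjusted p = 0.0712 and 0.0545), and Tyms without wild-type library 1 or 3 or heterozygous library 3 (adjusted p = 0.0719, 0.075 and 0.0509). The count of higher members was 0 without wild-type library 1 or, likewise, 2, 1 without wild-type library 3 or heterozygous library 1, 2 or 3, and 8 without heterozygous library 4, 6 of these being replication genes. In a fit of heterozygous and wild-type libraries alone, no member was called by limma, and in limma-voom on recovered reads 11 were lower. In the fit of all groups 32 members had an unadjusted p under 0.05, with no share of all genes at that threshold given here.

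**Figure D2:**
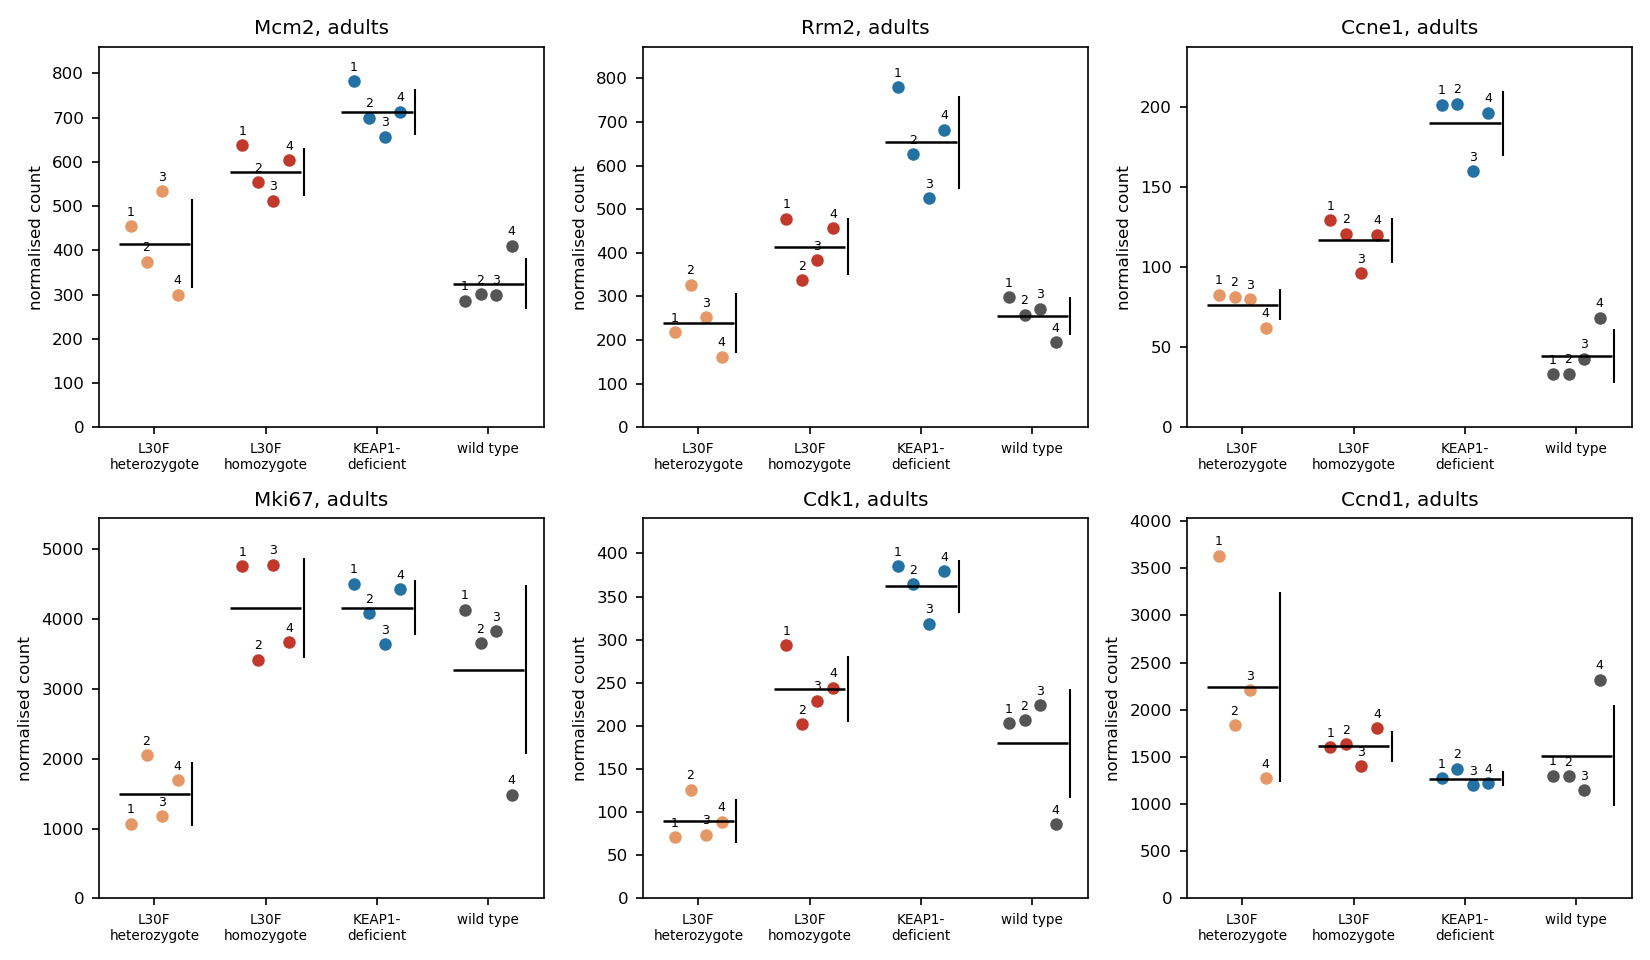
Normalised counts of 6 genes in each adult library, on linear axes from 0, with group means (horizontal lines), SD (vertical lines) and library numbers. Mcm2, Rrm2 and Ccne1 are higher in homozygous and KEAP1-deficient libraries than in wild type, Mki67 and Cdk1 are low in heterozygotes and in wild-type library 4, and for Ccnd1 each mutant group overlaps wild type.

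In adult L30F homozygotes, replication genes were higher than in wild type and mitosis genes were not called. 16 of 18 replication genes, Ccne1 and Ccne2, and E2f1 and Mybl2 were higher, Tyms was lower, and no mitosis gene of 20 was called by limma. Of all genes tested, 10.4% were lower and 11.8% higher. Among the mitosis genes, 3 had an unadjusted p under 0.05, with no share of all genes at that threshold given here. For these genes limma-voom called 0 higher and 0 lower. The medians were 0.70 for replication genes, 0.36 for mitosis genes and -0.0090 for all genes. Without wild-type library 4, 14 replication genes were higher and no mitosis gene was called.

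Mcm2 had 637, 554, 512 and 603 normalised counts in homozygotes, against 286, 300.3, 299.9 and 410.0 in wild type, and rose by 0.84 in log2 (SE 0.15, adjusted p = 0.00127). Rrm1 had 1603, 1265, 1209 and 1274, against 815, 696, 717 and 643 in wild type, and rose by 0.89 in log2 (SE 0.094, adjusted p = 1.01e-05). Ccne1 had 129, 121, 96.3 and 120.3, against 33.2, 33.6, 42.9 and 68.6 in wild type, and rose by 1.42 in log2 (SE 0.20, adjusted p = 0.00014). E2f1 had 211, 161, 165 and 242, against 96.2, 104, 107 and 143 in wild type, and rose by 0.78 in log2 (SE 0.16, adjusted p = 0.00257). Homozygotes lay above wild type in every library for these 4 genes, of which only Mcm2 was not picked by its adjusted p. Called replication genes that rose ran from 0.46 (Rfc4) to 1.06 (Cdt1). Mcm5, Cdt1 and Gins1 had changes of 1.05, 1.06 and 1.02, all called, and Prim1, the primase subunit, missed the threshold at 0.29. Tyms went the other way, with 606, 609, 614 and 668 in homozygotes against 839, 780.2, 894 and 799.8 in wild type, and fell by 0.41 in log2 (SE 0.065, adjusted p = 0.000516).

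Pcna had 978, 834, 873 and 880.5 normalised counts in homozygotes, against 602, 588, 608 and 766 in wild type, and rose by 0.48 in log2 (SE 0.13, adjusted p = 0.0165). Rrm2 had 478, 337, 384 and 457, against 298, 259, 272 and 195 in wild type, and rose by 0.69 in log2 (SE 0.19, adjusted p = 0.0176). Both calls are near the threshold: without homozygous library 1 the adjusted p was 0.0513 for Pcna and 0.0546 for Rrm2, and without wild-type library 2 it was 0.0504 for Pcna. Mki67 had 4764, 3422, 4783 and 3672, against 4137, 3656, 3826 and 1482 in wild type, a change of 0.43 (SE 0.28, adjusted p = 0.289). Top2a had 2513, 1748, 1958 and 1904, against 1961, 1799, 1929 and 871 in wild type, a change of 0.37 (SE 0.23, adjusted p = 0.27). Cdk1 had 293, 202, 229 and 244, against 203, 207, 224 and 86.0 in wild type, a change of 0.51 (SE 0.25, adjusted p = 0.166). Homozygous libraries overlapped wild-type libraries 1 to 3 in all 3 genes, and wild-type library 4 lay below them. Over the 20 mitosis genes the changes ran from -0.0060 (Cenpf) to 0.65 (Birc5). Ccnd1 had 1599.6, 1637, 1400.2 and 1806, against 1299.9, 1295, 1144 and 2317 in wild type, a change of 0.14 (SE 0.26, adjusted p = 0.732). Without wild-type library 4 the changes of Mki67, Top2a and Cdk1 were 0.089, 0.086 and 0.18, none called. In the same fit Mcm2 changed by 0.96, Ccne1 by 1.65, E2f1 by 0.90 and Pcna by 0.57, and Rrm2 changed by 0.57 (adjusted p = 0.0493).

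Of the adult mutants set against wild type, KEAP1-deficient adults had the most members higher. 17 of 18 replication genes, Ccne1 and Ccne2, 12 of 20 mitosis genes and all 3 transcription factors were higher than in wild type, 34 of 44 genes in all. Of all genes tested, 24.1% were higher and 22.7% lower. The medians were 1.01 for replication genes, 0.71 for mitosis genes and -0.0085 for all genes. Called replication genes ran from 0.42 (Prim1) to 1.54 (Mcm5) and called mitosis genes from 0.66 (Top2a) to 1.202 (Bub1). The replication count held without wild-type library 4, at 17 of 18. The mitosis count did not: it was 5 higher and 1 lower without wild-type library 4, and 5 higher without KEAP1-deficient library 1 or, likewise, without library 4 of that group.

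Mcm2 had 782, 699.7, 656 and 713 normalised counts in KEAP1-deficient adults, against 286, 300.3, 299.9 and 410.0 in wild type, and rose by 1.15 in log2 (SE 0.15, adjusted p = 1.42e-05). Rrm1 had 1859.6, 1723, 1611 and 1898, against 815, 696, 717 and 643 in wild type, and rose by 1.31 in log2 (SE 0.094, adjusted p = 2.6e-08). Rrm2 had 779, 625, 525 and 683, against 298, 259, 272 and 195 in wild type, and rose by 1.35 in log2 (SE 0.19, adjusted p = 3.25e-05). Both subunits of ribonucleotide reductase, of which Rrm1 was picked by its adjusted p, were above every wild-type library. Pcna had 977, 974, 854 and 1004, against 602, 588, 608 and 766 in wild type, and rose by 0.58 in log2 (SE 0.13, adjusted p = 0.00199). Ccne1 had 202, 202, 159.9 and 196, against 33.2, 33.6, 42.9 and 68.6 in wild type, and rose by 2.12 in log2 (SE 0.20, adjusted p = 3.65e-07), the widest change of any member in a comparison of 2 groups. Mybl2, which with MuvB acts on genes of the mitotic programme, had 349, 244, 267 and 309, against 98.2, 78.3, 88.3 and 65.2 in wild type, and rose by 1.82 in log2 (SE 0.20, adjusted p = 1.89e-06). E2f1 and Foxm1 changed by 0.67 and 0.72, both called.

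Bub1, a kinase of the spindle checkpoint, had 269, 256, 189 and 257 normalised counts in KEAP1-deficient adults, against 127, 129, 131 and 54.4 in wild type, and rose by 1.202 in log2 (SE 0.26, adjusted p = 0.00143). Cdk1 had 385, 364, 318 and 379, against 203, 207, 224 and 86.0 in wild type, and rose by 1.09 in log2 (SE 0.25, adjusted p = 0.00219). Top2a had 2644, 2385, 2193 and 2643, against 1961, 1799, 1929 and 871 in wild type, and rose by 0.66 in log2 (SE 0.23, adjusted p = 0.0277). All 3 genes, of which Bub1 was picked by its adjusted p, were above every wild-type library. Without wild-type library 4 the changes were 0.90 for Bub1 (adjusted p = 0.00218), 0.77 for Cdk1 (adjusted p = 0.00203) and 0.38 for Top2a (adjusted p = 0.0668). Top2a also missed the threshold without KEAP1-deficient library 1 or 4, at adjusted p = 0.0639 and 0.064. Mki67 had 4512, 4085, 3644 and 4432, against 4137, 3656, 3826 and 1482 in wild type, a change of 0.45 (SE 0.28, adjusted p = 0.212), and Cenpf, a centromere protein gene, changed by -0.21 (SE 0.31, adjusted p = 0.619). Ccnd1 had 1275, 1373, 1200.0 and 1223, against 1299.9, 1295, 1144 and 2317 in wild type, a change of -0.20 (SE 0.26, adjusted p = 0.561), and Tyms changed by -0.071 (SE 0.065, adjusted p = 0.401). Without wild-type library 4, Mki67 changed by 0.10 (adjusted p = 0.7), Mcm2 by 1.27, Rrm2 by 1.23, Ccne1 by 2.35 and Mybl2 by 1.71.

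**Figure D3:**
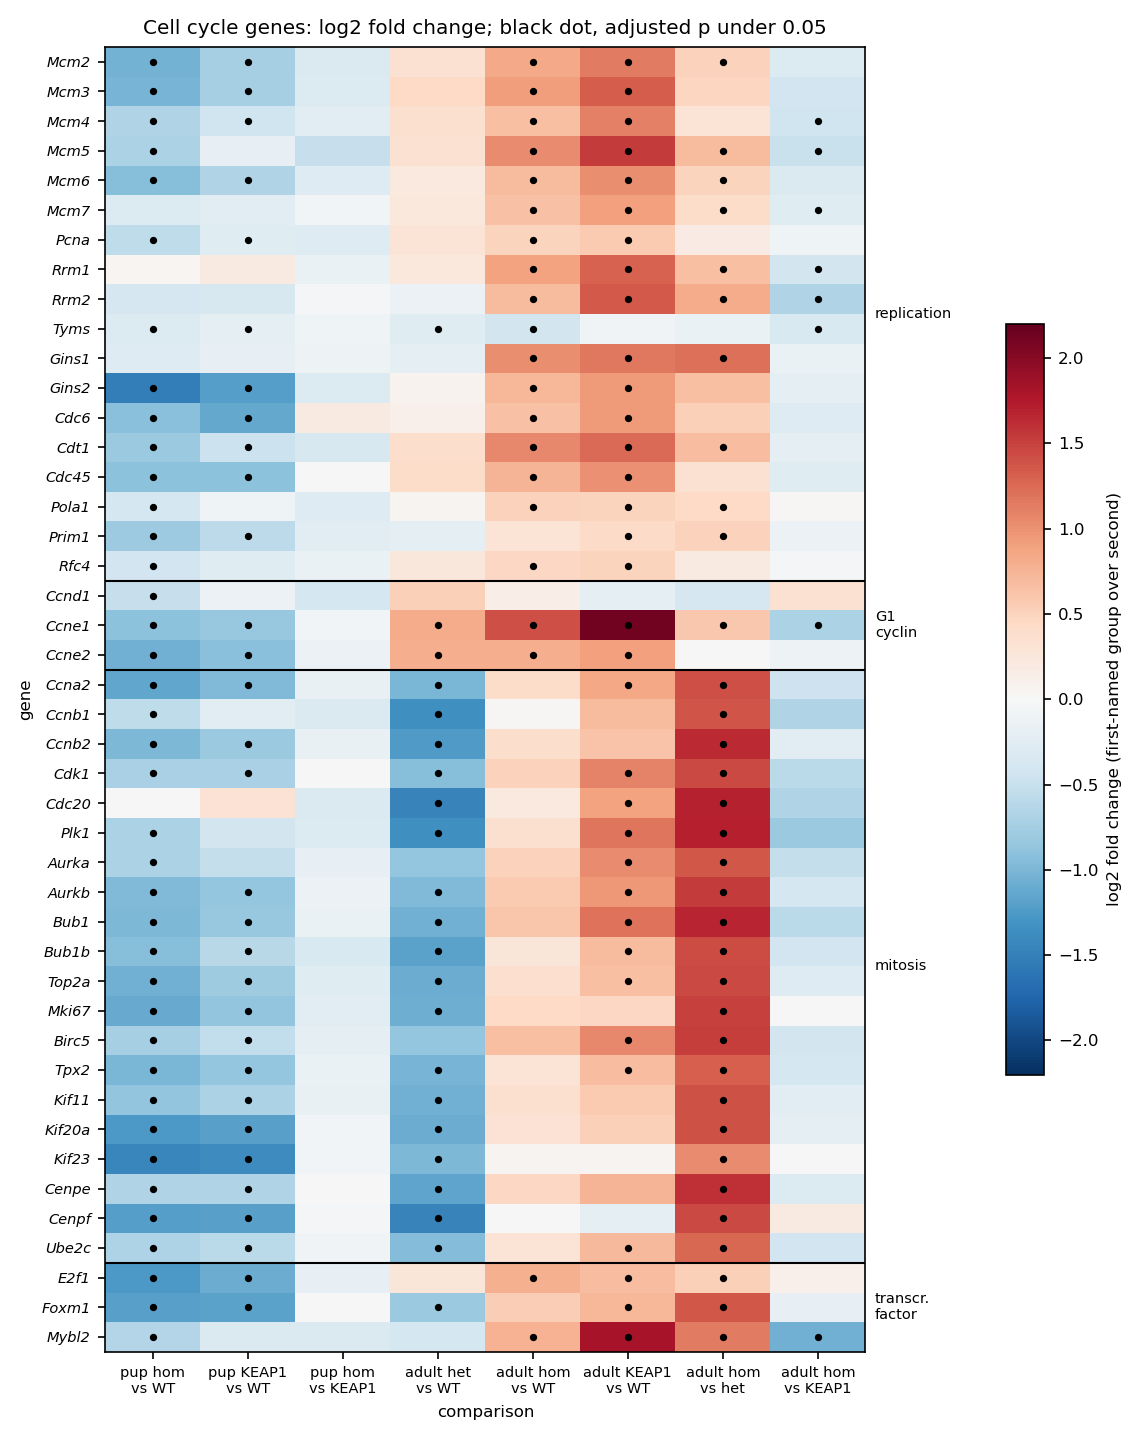
Log2 fold change of each of the 44 genes (rows, grouped by role) in 8 comparisons (columns; first-named group over the second), with a black dot where the adjusted p was under 0.05. The pup columns against wild type are blue in all roles, the heterozygote column is blue for mitosis genes, and the column of adult homozygotes against wild type has dots among replication genes and none among mitosis genes.

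Homozygotes and heterozygotes of the same L30F allele were set against each other in adults, a comparison that uses no wild-type library in its difference. All 20 mitosis genes were higher in homozygotes, with 10 of 18 replication genes, Ccne1 and all 3 transcription factors. That made 34 of 44 genes, where 8.07% of all genes were called higher and 8.29% lower. The medians were 1.45 for mitosis genes, 0.49 for replication genes and -0.0062 for all genes. The mitosis means were 8.97, 8.41, 8.80 and 8.66 on the log2 scale in homozygous libraries, against 6.78, 7.69, 6.97 and 7.55 in heterozygous libraries, without overlap. Called replication genes ran from 0.41 (Mcm7) to 1.21 (Gins1) and mitosis genes from 1.05 (Kif23) to 1.71 (Plk1). Over fits that left out 1 library each, 19 to 20 mitosis and 7 to 13 replication genes were higher. The clock gene difference also separated these groups, at 2.17 to 2.85 in heterozygotes and -0.87 to 1.73 in homozygotes. Its part was not tested beyond the covariate fit given below. The mitosis calls ended with the striated muscle covariate, also given below.

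Mki67 had 4764, 3422, 4783 and 3672 normalised counts in homozygotes, against 1069.8, 2055, 1175 and 1694 in heterozygotes, and rose by 1.51 in log2 (SE 0.28, adjusted p = 0.0029). Top2a had 2513, 1748, 1958 and 1904, against 609, 964, 586 and 837 in heterozygotes, and rose by 1.46 in log2 (SE 0.23, adjusted p = 0.000934). Bub1 had 189, 136, 182 and 136, against 34.1, 58.7, 44.8 and 65.2 in heterozygotes, and rose by 1.67 in log2 (SE 0.26, adjusted p = 0.000861). In these genes, of which Bub1 was picked by its adjusted p, every homozygous library was above every heterozygous one. Cdk1 had 293, 202, 229 and 244, against 70.7, 126, 73.9 and 88.9 in heterozygotes, and rose by 1.45 in log2 (SE 0.25, adjusted p = 0.00172). Foxm1 had 522, 428, 440.2 and 405, against 118, 228, 155 and 216 in heterozygotes, and rose by 1.36 in log2 (SE 0.23, adjusted p = 0.00139). Rrm1 had 1603, 1265, 1209 and 1274, against 860.2, 831, 899 and 785 in heterozygotes, and rose by 0.66 in log2 (SE 0.094, adjusted p = 0.000387). Plk1 and Cdc20 had the widest changes, 1.71 and 1.69. Rrm2 rose by 0.82 in log2 (SE 0.19, adjusted p = 0.01). Mcm2 rose by 0.50 in log2 (SE 0.15, adjusted p = 0.0343) and Ccne1 rose by 0.60 in log2 (SE 0.20, adjusted p = 0.0468). The call of Mcm2 ended without heterozygous library 2 or 4 or homozygous library 1, 2 or 4 (adjusted p of 0.0537 to 0.0971). That of Ccne1 ended in 12 of the 16 such fits (adjusted p up to 0.12, without heterozygous library 4). Pcna and Ccnd1 changed by 0.18 (SE 0.13, adjusted p = 0.383) and -0.37 (SE 0.26, adjusted p = 0.348).

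Against KEAP1-deficient adults, 8 of 44 genes were lower in adult L30F homozygotes: 6 of 18 replication genes, Ccne1 and Mybl2. Of all genes, 13.5% were called lower and 12.9% higher, so the members' share is not far from that background. No mitosis gene was called by limma, with 2 at an unadjusted p under 0.05 and 0 lower by limma-voom. The share of all genes at the unadjusted threshold is not given here. Ccne1 had 129, 121, 96.3 and 120.3 normalised counts in homozygotes, against 202, 202, 159.9 and 196 in KEAP1-deficient adults, and fell by 0.70 in log2 (SE 0.20, adjusted p = 0.0147). Mybl2 had 185, 136, 121 and 124, against 349, 244, 267 and 309 in KEAP1-deficient adults, and fell by 1.05 in log2 (SE 0.20, adjusted p = 0.00103). Tyms had 606, 609, 614 and 668, against 828, 793, 789.9 and 740.1 in KEAP1-deficient adults, and fell by 0.34 in log2 (SE 0.065, adjusted p = 0.00141). These 3 genes, picked by their adjusted p, were lower in homozygotes in every library. Rrm2 fell by 0.66 in log2 (SE 0.19, adjusted p = 0.02), a call that ended without homozygous library 2 (adjusted p = 0.0673) and without KEAP1-deficient library 1 or 4 (adjusted p = 0.063 and 0.0503). Mcm2, Mki67 and Cdk1 changed by -0.31 (-0.63 to 0.014 as 95% interval), -0.014 (-0.61 to 0.59) and -0.59 (-1.12 to -0.047). Pcna, Top2a and Ccnd1 lay at -0.095, -0.29 and 0.34, none called. The replication count was 2 without homozygous library 2, 3 without library 3 or, likewise, 4, 2 without KEAP1-deficient library 1 or, likewise, 4, and 3 without library 2. Without wild-type library 4, which enters only through the shared spread, 4 mitosis genes were lower, Cdk1 among them (adjusted p = 0.0139). With homozygous and KEAP1-deficient libraries alone in the fit, 19 members were lower and 1 higher.

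The 5 adult libraries with the lowest mitosis means also had the highest clock gene differences. The clock gene difference was 2.52, 2.23, 2.85 and 2.17 in heterozygous, 1.34, 1.56, -0.87 and 1.73 in homozygous, -1.90, 0.46, 0.44 and 0.92 in KEAP1-deficient and -1.95, -1.75, -2.07 and 2.24 in wild-type libraries 1 to 4. The 5 libraries with a mitosis mean under 8, which are the 4 heterozygous libraries and wild-type library 4, all had a clock difference above 2, and no other adult library did. Within the heterozygotes, libraries 3 and 1 had the highest clock differences and the lowest mitosis means (6.97 and 6.78). Among the other 11 adult libraries the mitosis means were 8.75, 8.63 and 8.74 in wild-type libraries 1 to 3. They were 8.97, 8.41, 8.80 and 8.66 in homozygous and 9.24, 9.05, 8.88 and 9.16 in KEAP1-deficient libraries 1 to 4. The replication means were 7.87, 7.80, 8.06 and 7.55 in heterozygous libraries and 7.76 in wild-type library 4. Wild-type libraries 1 to 3 had replication means of 7.68, 7.54 and 7.63. With the clock difference as a covariate, 51.8% of whose variance lay between adult groups, no member was called in heterozygotes against wild type, 13 mitosis and 12 replication genes were higher in homozygotes against wild type, and 18 and 17 in KEAP1-deficient adults against wild type. In homozygotes against heterozygotes, 20 mitosis and 11 replication genes were higher with it. The covariate was chosen after the data were seen, and the part of clock state in the lower mitosis values was not tested beyond this fit.

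**Figure D4:**
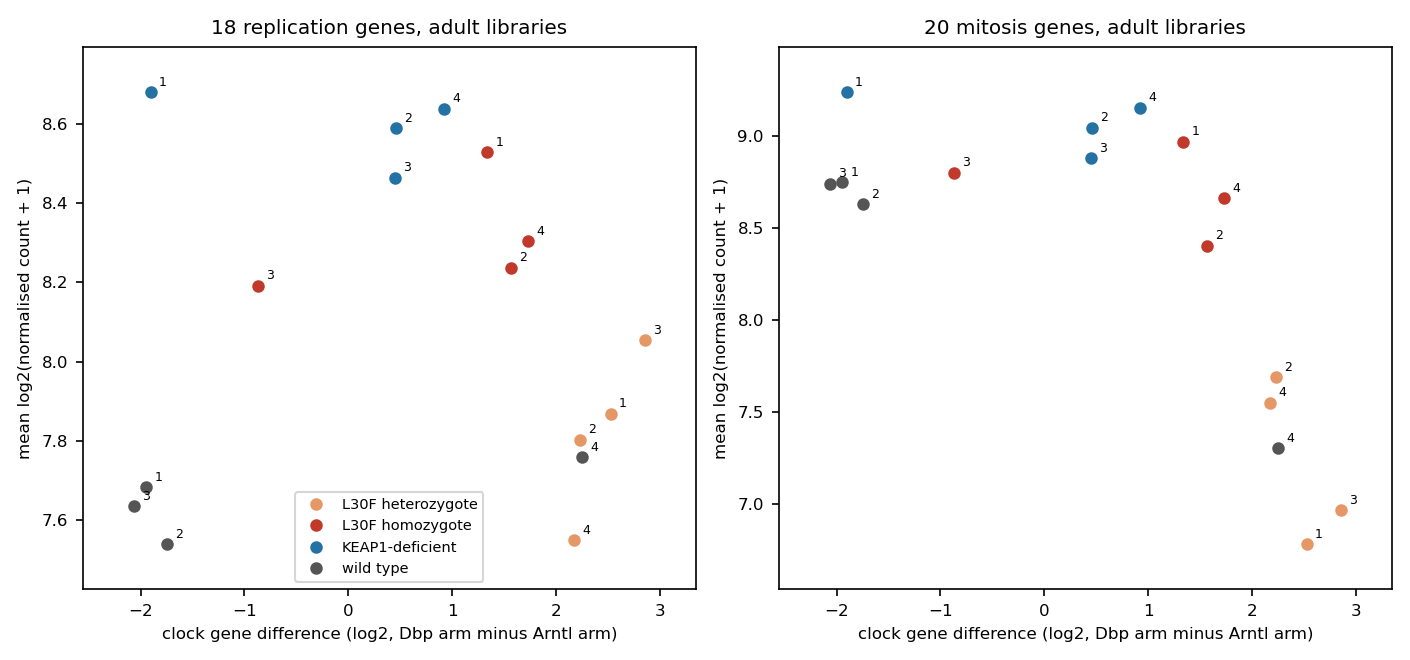
Clock gene difference (horizontal axis, log2; 9 genes that peak with Dbp minus Arntl, Npas2 and Clock) against the mean log2(normalised count + 1) of replication genes (left) and mitosis genes (right) in the 16 adult libraries, with library numbers. The 4 heterozygous libraries and wild-type library 4 lie together at high clock difference and low mitosis mean, away from wild-type libraries 1 to 3.

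Cell type markers also differed between adult groups. Of all genes tested against wild type, 4.9% were called lower and 4.8% higher in heterozygotes, and 10.4% and 11.8% in homozygotes. In KEAP1-deficient adults 22.7% were lower and 24.1% higher. The striated muscle counts of homozygotes are near these shares. Striated muscle markers were higher in heterozygotes for 8 of 12, lower in KEAP1-deficient adults for 11 of 12, and higher for 1 and lower for 1 in homozygotes, all against wild type. Their summed counts were 1619914 to 2151172 in heterozygotes, 1135244 to 1593554 in homozygotes, 425496 to 640877 in KEAP1-deficient adults and 1174386 to 1366683 in wild type. Leukocyte markers were higher for 6 of 8 in homozygotes and 7 of 8 in KEAP1-deficient adults, with sums of 3752 to 4952 in heterozygotes, 5166 to 17902 in homozygotes, 33303 to 40448 in KEAP1-deficient adults and 2813 to 5223 in wild type. Basal squamous markers were higher for 4 of 8 and lower for 3 in KEAP1-deficient adults, and the sums were 86521 to 125891 in heterozygotes, 109413 to 151148 in homozygotes, 194179 to 224023 in KEAP1-deficient adults and 93944 to 113328 in wild type. Suprabasal squamous markers were lower for 4 of 6 in homozygotes, and lower for 4 and higher for 2 in KEAP1-deficient adults. Their sums were 562492 to 849873 in heterozygotes, 466678 to 642247 in homozygotes, 127402 to 189729 in KEAP1-deficient adults and 909291 to 1244880 in wild type. In KEAP1-deficient adults smooth muscle markers were lower for 7 of 8 and fibroblast markers higher for 5 of 8, with smooth muscle sums of 23588 to 45079, against 45140 to 63163 in wild type. No marker of these lists was at 0 throughout an adult group. With the mean striated muscle level as a covariate, 3 replication genes and no mitosis gene were higher in KEAP1-deficient adults against wild type, and 14 replication genes in homozygotes against wild type. In homozygotes against heterozygotes, 4 replication genes and no mitosis gene were higher with it. As 94.9% of the variance of that covariate lay between adult groups, muscle content and genotype cannot be told apart there. The part of leukocytes, squamous layers, smooth muscle and fibroblasts was not tested.

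The effect of each genotype was then compared between ages. The L30F homozygote effect was higher in adults than in pups for 39 of 44 genes, comprising 17 of 18 replication genes, Ccne1 and Ccne2, 17 of 20 mitosis genes and all 3 transcription factors. Over the 19031 genes tested at both ages, 13.6% were called higher and 19.9% lower. The median difference was 1.35 over the members and -0.035 over all genes. The differences were 1.89 for Mcm2 (SE 0.20, adjusted p = 3.74e-08), 2.05 for E2f1 (SE 0.21, adjusted p = 2.64e-08) and 2.33 for Ccne1 (SE 0.29, adjusted p = 1.07e-06). For Mki67, Top2a and Cdk1 they were 1.54, 1.42 and 1.22, and for Pcna and Rrm2 1.03 and 1.07, all called. Called replication genes ran from 0.85 (Rrm1) to 2.26 (Gins2) and called mitosis genes from 0.97 (Ube2c) to 1.59 (Bub1). Ccnd1, at 0.66 (SE 0.29, adjusted p = 0.084), passed without pup homozygous library 1, adult wild-type library 4 or adult heterozygous library 1 or 4, with adjusted p of 0.0138 to 0.0442. Members that were lower in homozygous pups and higher in homozygous adults numbered 16 of 44, against 1.89% of the 19031 genes, and 12 of these were replication genes and none mitosis genes. Without adult wild-type library 4 the number lower in pups and higher in adults was 14, 38 members had a higher effect in adults, and the differences were 2.01 for Mcm2, 2.55 for Ccne1, 1.195 for Mki67, 1.14 for Top2a and 0.90 for Cdk1, all called.

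The KEAP1-deficient effect was higher in adults than in pups for 40 of 44 genes: 17 replication genes, Ccne1 and Ccne2, 18 mitosis genes and all 3 transcription factors. Of the genes tested at both ages, 20.6% were called higher and 26.5% lower, and the medians were 1.55 over the members and -0.047 over all genes. The differences were 2.96 for Ccne1 (SE 0.29, adjusted p = 1.3e-08), 2.06 for Mcm3 (SE 0.21, adjusted p = 8.47e-09) and 2.13 for Mybl2 (SE 0.26, adjusted p = 1.34e-07). Those of Mcm2, Pcna and Rrm2 were 1.88, 0.85 and 1.70, and those of Mki67, Top2a and Cdk1 were 1.32, 1.44 and 1.80, all called. Called replication genes ran from 0.59 (Pola1) to 2.16 (Gins2) and called mitosis genes from 0.98 (Cenpf) to 2.03 (Bub1). Mcm3 had 364, 442 and 406 normalised counts in KEAP1-deficient pups, against 722, 640.4 and 643 in wild-type pups. It had 672, 641, 624 and 724 in KEAP1-deficient adults, against 284, 232, 231 and 311 in wild-type adults. This gene, picked by its adjusted p in this comparison, was below every wild-type library in pups and above every one in adults. Whether the E2F motifs of its promoter, shown above, bear on these values was not tested. Ccnd1, at -0.073 (SE 0.29, adjusted p = 0.854), Tyms at 0.13, Cdc20 at 0.57 and Ccnb1 at 0.93 were not called. Members that were lower in KEAP1-deficient pups and higher in KEAP1-deficient adults numbered 23 of 44, against 4.92% of the genes tested at both ages, 10 of them replication and 9 mitosis genes. Without adult wild-type library 4 the number lower in pups and higher in adults was 18, 39 members had a higher effect in adults, and the differences were 1.99 for Mcm2, 3.19 for Ccne1, 0.97 for Mki67, 1.16 for Top2a and 1.48 for Cdk1, all called. Age, Cre line, tamoxifen and the time since recombination differed together between pups and adults and cannot be told apart. With the clock covariate at both ages 1 member was called for the L30F homozygote effect and 10 for the KEAP1-deficient effect.

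**Figure D5:**
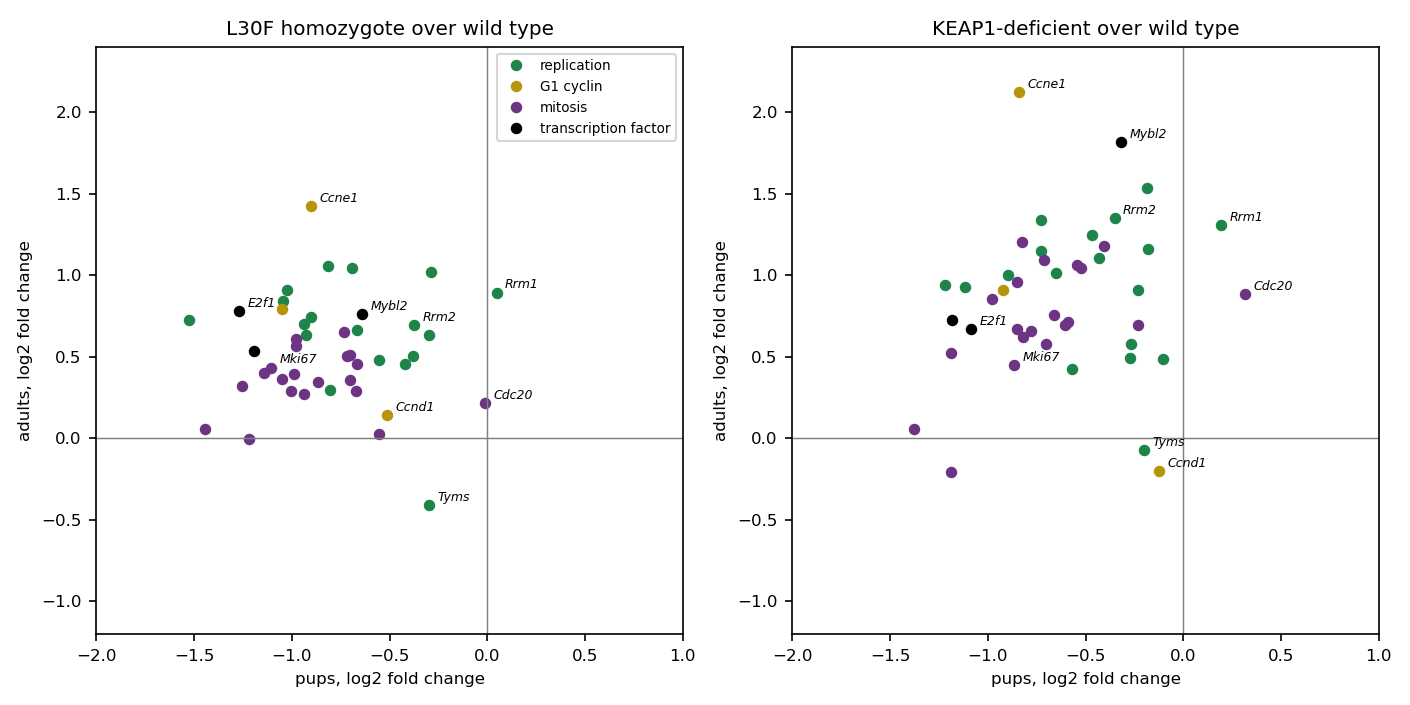
Log2 fold change against wild type in pups (horizontal axis) and adults (vertical axis) for the 44 genes, coloured by role, in L30F homozygotes (left) and KEAP1-deficient mice (right). Most genes lie to the left of 0 in pups and above 0 in adults, with Ccne1 highest in both panels, Tyms below 0 in adults and Rrm1 right of 0 in pups.

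Cell cycle genes outside the 44 were read by the same tests. Of all genes tested, 17.1% were lower and 22% higher in homozygous pups, and 23.2% and 26.3% in KEAP1-deficient pups. Against adult wild type, 4.9% were lower and 4.8% higher in heterozygotes, and 10.4% and 11.8% in homozygotes. In KEAP1-deficient adults 22.7% were lower and 24.1% higher. In homozygotes against heterozygotes 8.29% were lower and 8.07% higher. Of 36 other replication genes, 23 were lower and 2 higher in homozygous pups, 19 lower and 3 higher in KEAP1-deficient pups, 1 lower in adult heterozygotes, 22 higher in adult homozygotes and 28 higher in KEAP1-deficient adults. Uhrf1, which takes part in the copying of DNA methylation after replication, fell by 1.42 in log2 (SE 0.18, adjusted p = 0.000221) in homozygous pups. Lig1, the ligase that joins Okazaki fragments, rose by 0.86 in log2 (SE 0.10, adjusted p = 4.83e-05) in adult homozygotes, and Mcm10, a replication initiation factor, rose by 1.95 in log2 (SE 0.18, adjusted p = 3.18e-07) in KEAP1-deficient adults. Chaf1a, a subunit of the chromatin assembly factor that follows the replication fork, went against its list in the pups, where it rose by 1.09 in log2 (SE 0.11, adjusted p = 2.75e-05) in homozygotes and rose by 1.52 in log2 (SE 0.11, adjusted p = 1.58e-06) in KEAP1-deficient pups.

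Of 51 other mitosis genes, 41 were lower in homozygous pups, and 35 were lower and 1 higher in KEAP1-deficient pups. In adults against wild type, 24 were lower in heterozygotes, 6 higher and 1 lower in homozygotes, and 28 higher and 1 lower in KEAP1-deficient adults. In homozygotes against heterozygotes 48 of 51 were higher and 1 lower. Kif4, a chromosome-bound kinesin, fell by 1.04 in log2 (SE 0.20, adjusted p = 0.00521) in heterozygotes, and Sgo1, which protects cohesion at centromeres, rose by 1.49 in log2 (SE 0.21, adjusted p = 0.00039) in homozygotes against heterozygotes. Pttg1, which encodes securin, went against its list and rose by 0.53 in log2 (SE 0.11, adjusted p = 0.00293) in KEAP1-deficient pups and fell by 0.44 in log2 (SE 0.13, adjusted p = 0.00919) in KEAP1-deficient adults.

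Upstream of S phase, 6 of 7 inhibitors of cyclin-dependent kinases passed the filter. Cdkn2b, which blocks the G1 kinases, rose by 2.19 in log2 (SE 0.16, adjusted p = 2.32e-06) in homozygous pups, rose by 2.25 in log2 (SE 0.16, adjusted p = 1.25e-06) in KEAP1-deficient pups, rose by 0.96 in log2 (SE 0.18, adjusted p = 0.00149) in adult homozygotes and rose by 0.67 in log2 (SE 0.18, adjusted p = 0.00522) in KEAP1-deficient adults. Of the 6 inhibitors, 3 were lower and 2 higher in homozygous pups, and 4 were lower and 2 higher in KEAP1-deficient pups. The 2 higher ones in each pup mutant were Cdkn2b and Cdkn1a. In adult homozygotes 2 were lower and 2 higher, as in KEAP1-deficient adults, and in heterozygotes 0 were lower and 2 higher. Of all genes, 10.4% were lower and 11.8% higher in adult homozygotes, and 22.7% and 24.1% in KEAP1-deficient adults. The shares were 4.9% and 4.8% in heterozygotes and 23.2% and 26.3% in KEAP1-deficient pups. With only 6 genes, these counts are not read as a result about the inhibitors. The part of these inhibitors in the cycle genes was not tested. Cdkn1a, the inhibitor induced by p53, fell by 0.70 in log2 (SE 0.13, adjusted p = 0.00181) in adult homozygotes and fell by 0.95 in log2 (SE 0.13, adjusted p = 2.29e-05) in KEAP1-deficient adults, and its effect differed between adults and pups by -1.55 for the L30F homozygote (SE 0.16, adjusted p = 2.1e-08) and -2.03 for KEAP1 deficiency (SE 0.16, adjusted p = 8.27e-11). Cdkn1c fell by 1.93 in log2 (SE 0.17, adjusted p = 1.38e-05) in KEAP1-deficient pups and rose by 1.34 in log2 (SE 0.22, adjusted p = 0.00217) in adult heterozygotes. Among 14 other G1/S genes, Cdk6, a partner of D-type cyclins, rose by 2.10 in log2 (SE 0.081, adjusted p = 6.52e-11) in KEAP1-deficient adults, and E2f7, a repressor of E2F targets that is itself induced in S phase, rose by 1.03 in log2 (SE 0.17, adjusted p = 0.00243) in adult heterozygotes and rose by 1.88 in log2 (SE 0.17, adjusted p = 2.66e-06) in adult homozygotes. Of these 14, 9 were higher and 1 lower in KEAP1-deficient adults, and 4 higher and 4 lower in homozygous pups. The pup counts are not far from the shares of all genes there, 22% higher and 17.1% lower.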

How the data were processed

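RNA of the whole esophagus was sequenced from 9 pup and 16 adult libraries with a stranded kit (MGIEasy RNA Directional), per the labels' protocols, and quantified with Salmon on GRCm39, per the submitters' processing notes. A Salmon version is not given in the sources used here. Values deposited by the authors are log2 values in 1 table per experiment. They step as log2(n + 4) of a normalised count n, and whole reads could be recovered from them (100% of values up to 1000 reads within 0.1 of a whole number). Scaling in the deposited tables differs from median-of-ratios factors by at most 0.195% in pups and 0.0146% in adults.

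Normalised counts were recovered and tested on log2(count + 1), which understates changes of low genes, with limma 3.58.1 (R 4.3.3, statmod 1.5.0, trend and robust). A gene was kept when it reached 1 normalised count in a number of libraries equal to the size of the smallest group, leaving 21007 genes in pups and 19857 in adults. Each experiment was fitted whole with no replicate term. Adult and pup effects were compared over 19031 genes as differences of log2 fold changes with Welch-Satterthwaite degrees of freedom. The fits were tested on simulated data. Depth was lowest in adult homozygotes (10868000 to 11643000 reads), which limits the precision of low genes there most.

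The members and gene lists were chosen with earlier results of these data known. Library values are given for Mcm2, Pcna, Rrm2, Ccnd1, Mki67, Top2a and Cdk1, and in each comparison for the called gene of smallest adjusted p in a role. Genes picked by adjusted p tend to separate the groups, so a lack of overlap in them describes the values and adds no evidence. Other genes described with library values, the clock genes and the clock covariate were chosen after their values were seen. Alternatives were offsets of 4 and 0.1, no filter, TMM scaling, scaling to equal totals, limma-voom, only the groups compared, a replicate block, thinning to equal depth, covariates for striated muscle, Ddx3y and clock genes, and leaving out each library. Promoters were taken from RefSeq (GRCm38.p6) and searched with Python 3.11.15.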

Additional observations from a re-analysis of the deposited data

Results flagged for a closer look

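In 21 of 176 tests of a gene in an adult group of 4, 1 library lay far from the other 3, where chance gives about 1 in 20. Wild-type library 4 gave 13 of the 21. It was low for Ccna2 (233 normalised counts), Ccnb1 (131), Cdk1 (86.0), Bub1 (54.4), Top2a (871), Tpx2 (206), Kif11 (233), Cenpe (173) and Cenpf (432), which all act in mitosis. It was high for Mcm2 (410.0), Mcm7 (421), Pcna (766) and Ccnd1 (2317), which act in G1 and S phase. The clock genes of the same library are given in the report, and their part in these values was not tested.

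In adult homozygotes, Rrm1 was high in library 1 (1603), Tyms high in library 4 (668), and Gins1 (44.8) and Tpx2 (345) low in library 2. In heterozygotes, Gins2 was high in library 3 (89.6) and Ccne1 low in library 4 (62.2). In KEAP1-deficient adults, Ccne1 was low in library 3 (159.9) and E2f1 high in library 2 (201).

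The difference between the adult and the pup effect passed the test for 8 of the genes followed in the L30F homozygotes. On the log2 scale it was 1.89 for Mcm2, 1.03 for Pcna, 1.07 for Rrm2, 1.54 for Mki67, 1.42 for Top2a, 1.22 for Cdk1, 2.33 for Ccne1 and 2.05 for E2f1. For KEAP1 deficiency it was 1.88 for Mcm2, 0.85 for Pcna, 1.70 for Rrm2, 1.32 for Mki67, 1.44 for Top2a, 1.80 for Cdk1, 2.06 for Mcm3, 2.96 for Ccne1 and 2.13 for Mybl2. Ccne1 and E2f1 in homozygotes, and Mcm3, Ccne1 and Mybl2 in KEAP1 deficiency, were followed for their adjusted p in the same test. Their passing therefore adds no evidence. Of the genes tested at both ages, 13.6% were called higher and 19.9% lower for the L30F homozygote effect. For the KEAP1-deficient effect 20.6% were called higher and 26.5% lower.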

How the results depend on the processing

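Counts of members in each direction were recomputed under each alternative: 1517 of 1608 values stayed within 1.5 times the reported count, and 91 did not (reported counts in parentheses below). With the clock gene covariate, homozygous pups against wild type had 0 called lower (39), 0 replication lower (14) and 0 mitosis lower (19), KEAP1-deficient pups against wild type had 0 called lower (31), 0 replication lower (11) and 0 mitosis lower (16), adult heterozygotes against wild type had 0 called lower (20), 0 called higher (2), 0 replication lower (1) and 0 mitosis lower (18), adult homozygotes against wild type had 13 mitosis higher (0), the L30F homozygote effect, adult minus pup had 1 called higher (39), 1 replication higher (17) and 0 mitosis higher (17), the KEAP1-deficient effect, adult minus pup had 10 called higher (40), 7 replication higher (17) and 1 mitosis higher (18). With the striated muscle covariate, KEAP1-deficient pups against wild type had 1 called higher (0) and 1 replication higher (0), adult heterozygotes against wild type had 0 called lower (20), 0 called higher (2), 0 replication lower (1) and 0 mitosis lower (18), KEAP1-deficient adults against wild type had 4 called higher (34), 3 replication higher (17) and 0 mitosis higher (12), adult homozygotes against heterozygotes had 4 called higher (34), 4 replication higher (10) and 0 mitosis higher (20), adult homozygotes against KEAP1-deficient adults had 0 called lower (8) and 0 replication lower (6), the KEAP1-deficient effect, adult minus pup had 12 called higher (40), 9 replication higher (17) and 0 mitosis higher (18). With limma-voom on recovered reads, adult heterozygotes against wild type had 11 called lower (20) and 9 mitosis lower (18). With only the groups compared, adult heterozygotes against wild type had 0 called lower (20), 0 called higher (2), 0 replication lower (1) and 0 mitosis lower (18), adult homozygotes against KEAP1-deficient adults had 19 called lower (8), 1 called higher (0) and 9 mitosis lower (0). With a replicate block, adult heterozygotes against wild type had 11 called lower (20) and 10 mitosis lower (18). Offsets, no filter, TMM scaling, equal totals, thinning and the Ddx3y covariate moved no count by more. Samples do not pair by replicate number: correlations of deviations between same-numbered libraries ran from -0.13 to 0.20, no comparison had every pair above 0.1, and a library correlated best with its own number in 6 of 18 pup and 21 of 48 adult cases. Ddx3y could not be fitted as a covariate in adults, where every library expresses it. The covariate and genotype cannot be told apart for the clock in pups and for striated muscle in adults. In adults 51.8% of the clock measure's variance lay between groups, so clock and genotype can be told apart only in part there. Between pup groups lay 14.1% of the muscle measure's variance, and the cause of that shift and of the others was not tested. Leaving out 1 library at a time: In KEAP1-deficient pups against wild type the fits gave 0 to 2 called higher, 0 to 1 replication higher, 10 to 17 mitosis lower, 0 to 1 mitosis higher. In homozygous against KEAP1-deficient pups the fits gave 0 to 1 called lower, 0 to 1 replication lower. In adult heterozygotes against wild type the fits gave 2 to 22 called lower, 0 to 8 called higher, 0 to 1 replication lower, 0 to 6 replication higher, 2 to 20 mitosis lower. In KEAP1-deficient adults against wild type the fits gave 0 to 1 called lower, 0 to 1 mitosis lower, 5 to 12 mitosis higher. In adult homozygotes against KEAP1-deficient adults the fits gave 4 to 12 called lower, 2 to 8 replication lower, 0 to 4 mitosis lower. Single genes kept direction and side of the threshold in 2445 values, lost the call in 133, gained it in 24 and changed sign in 40, none of these past the threshold after the change. In homozygous pups against wild type, Pcna was -0.55 and became 0.033 with the clock gene covariate. Rrm2 was -0.37 and became 0.64 with the clock gene covariate. In KEAP1-deficient pups against wild type, Mcm2 was -0.73 and became 0.012 with the clock gene covariate. Pcna was -0.27 and became 0.27 with the clock gene covariate. Rrm2 was -0.35 and became 0.59 with the clock gene covariate. Ccnd1 was -0.13 and became 0.18 with the clock gene covariate. In homozygous against KEAP1-deficient pups, Rrm2 was -0.024 and became 0.11 with scaling to equal totals, 0.051 with the clock gene covariate, 0.059 and 0.13 without homozygous pup library 2 or without KEAP1-deficient pup library 2 (range -0.17 to 0.13). Cdk1 was -0.0030 and became 0.021 with TMM scaling, 0.13 with scaling to equal totals, 0.0026 when thinned to equal depth, 0.071 with the Ddx3y covariate, 0.025 with the clock gene covariate, 0.071, 0.069 and 0.036 without homozygous pup library 3 or without KEAP1-deficient pup library 1 or without KEAP1-deficient pup library 2 (range -0.11 to 0.071). In adult heterozygotes against wild type, Rrm2 was -0.12 and became 0.15 with the clock gene covariate, 0.050 without adult heterozygous library 4 (range -0.29 to 0.050). Ccnd1 was 0.52 and became -0.014 with the clock gene covariate. In adult homozygotes against wild type, Ccnd1 was 0.14 and became -0.15 with the clock gene covariate. In KEAP1-deficient adults against wild type, Ccnd1 was -0.20 and became 1.02 with the striated muscle covariate, 0.025 without adult wild-type library 4 (range -0.31 to 0.025). Mki67 was 0.45 and became -0.66 with the striated muscle covariate. Top2a was 0.66 and became -0.049 with the striated muscle covariate. In adult homozygotes against heterozygotes, Ccnd1 was -0.37 and became 0.017 with the striated muscle covariate. In adult homozygotes against KEAP1-deficient adults, Ccnd1 was 0.34 and became -1.003 with the striated muscle covariate. Mki67 was -0.014 and became 1.21 with the striated muscle covariate, 0.22 with the clock gene covariate, 0.074, 0.041, 0.026 and 0.017 without adult homozygous library 2 or without adult homozygous library 4 or without KEAP1-deficient adult library 1 or without KEAP1-deficient adult library 4 (range -0.086 to 0.074). Top2a was -0.29 and became 0.49 with the striated muscle covariate. Cdk1 was -0.59 and became 0.19 with the striated muscle covariate. In the KEAP1-deficient effect, adult minus pup, Ccnd1 was -0.073 and became 0.35 with scaling to equal totals, 1.16 with the striated muscle covariate, 0.021 and 0.15 without wild-type pup library 1 or without adult wild-type library 4 (range -0.19 to 0.15).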
